A study of Homo sapiens with 12 samples.

Results

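The data here are the messenger RNA levels of MDA-MB-231 cells transfected with the canonical hsa-miR-140-3p, set against MDA-MB-231 cells transfected with control mimics. MDA-MB-231 is an established human breast cancer cell line that lacks the estrogen and progesterone receptors. Both groups came from the same line, received 30 nM of a mimic, a synthetic double-stranded RNA that is loaded like a natural miRNA, with a cationic lipid as carrier, and were harvested 48 h later. The hsa-miR-140-3p group holds 2 arrays from biological replicates, and the control group holds 1 array of mimic-ctrl1 and 1 array of mimic-ctrl2, which are different control mimics. These 4 arrays were chosen by their sample titles from a series of 12, which also holds 2 MDA-MB-231 arrays of the 5'isomiR-140-3p and 6 arrays of the same groups in MCF10A, a non-tumorigenic breast epithelial line. The control group as modelled therefore joins the difference between the control mimics and the difference between arrays, which cannot be told apart. Of 47323 probes on each Illumina HumanHT-12 v4 array, 30111 are paired with 1 gene, and 10491 genes with a probe above background on at least 2 arrays were tested, 9653 of them above background on at least 1 of the 4 arrays.

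A miRNA guides an Argonaute protein to messenger RNAs, mostly through base pairing of its seed, the bases at positions 2 to 8, with sites in the 3' untranslated region. The usual outcome is a moderate fall of the target transcript and of its protein, and transcripts that do not pair with the miRNA can change as a further consequence. The gene that hosts the miR-140 hairpin is WWP2, and mice without the miRNA have a shortened skeleton. The 5' isomiR of miR-140-3p starts 1 base further downstream, which moves its seed by the same step. A comparison of the canonical form with controls asks which transcripts changed when cells were given more of the form that the databases annotate.

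The mature sequences are shown because the base shift between them separates the mimics compared below, with the seed in capitals, from 5' to 3', as RefSeq gives the canonical form and its hairpin in GRCh38.p14.
hsa-miR-140-3p: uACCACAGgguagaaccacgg
5'isomiR-140-3p: aCCACAGGguagaaccacggac
The canonical form occupies chr16:69933142-69933162 on the plus strand and is 21 bases long. The 5'isomiR, read from the same hairpin, occupies chr16:69933143-69933164 and is 22 bases long. A full match to the canonical seed reads CUGUGGU in a messenger RNA, and a full match to the isomiR seed reads CCUGUGG. No other mature miRNA among the 2370 human names in the RefSeq table has either seed. Matches to the seeds in transcripts were not analysed here.

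Levels are given as log2 normalized intensities, a scale on which a difference of 1 is a doubling. The background of an array was set at the 0.99 quantile of 457 probes for olfactory receptor genes and lay at 5.51 to 5.72 on the 4 arrays. On these arrays 13735 to 14801 probes were above background, and 838 of the genes tested were at background on all 4 arrays. The hsa-miR-140-3p arrays correlated at 0.995 over the tested genes, the control arrays at 0.981, and arrays of different groups at 0.984 to 0.985. Differences beyond the fold limit for falls used below, in either direction, separated the hsa-miR-140-3p arrays in 204 genes. For the arrays of mimic-ctrl1 and mimic-ctrl2 this held in 1212 genes. Of 14 mesenchymal markers of the line 11 were measured and all 11 were above background, with vimentin (VIM) at 13.91 and 13.78 with hsa-miR-140-3p and at 13.79 and 13.80 in controls. Of the measured markers of other cell types, 5 of 10 basal epithelial, 6 of 8 luminal and receptor and 2 of 3 leukocyte genes were also above background, and none of these lists had a called member. The epithelial cadherin CDH1 and the basal keratins KRT5 and KRT14 were at background on all 4 arrays, and no probe of the receptor genes ESR1 and PGR or of the leukocyte gene PTPRC passed the background filter.

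hsa-miR-140-3p was followed by more falls than rises in the fit of all 12 arrays, by a margin that depended on the control arrays. Expression was below 65% of the control mean with an adjusted p under 0.05 for 107 genes, which is 1.02% of the genes tested, and exceeded the control mean by more than 65% for 20 genes, which is 0.191%. MAP1LC3A, ADAM10, ADCY9 and HMGCS1 were among the genes that fell most, and FAM3C and PBX3 rose most. The falls were also larger than the rises: 46 of the 107 genes were lower by more than 1 on the log2 scale and 3 of the 20 higher by more than 1. The fold limit for falls is a smaller log2 change than that for rises, so smaller falls than rises could pass. The median log2 difference was -0.95 over the genes that fell and 0.84 over those that rose, while the median over all genes was -0.0041. In all 107 genes both hsa-miR-140-3p arrays were below both control arrays, and in all 20 both were above, where 22.2% and 21.4% of all genes showed these orders. The calls were made on these same arrays, so separated groups are largely built into them. Here and below, separation of a called gene is a description and no further evidence. The genes that fell had a median control level of 8.86, against 7.83 for all genes, and those that rose had 7.57.

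The calls rest on a spread estimated over all 12 arrays with limma's moderated test. Fitted on the 4 arrays alone, no gene passed in either direction. In the fit of 12, 819 of the 10491 genes were lower and 742 higher at an unadjusted p under 0.05, which many genes reach without any difference. Leaving out either hsa-miR-140-3p array left far fewer genes called in both directions. Leaving out mimic-ctrl1 or mimic-ctrl2 instead gave more calls in both directions, and the falls then outnumbered the rises by much less. Without either 5'isomiR array of MDA-MB-231 71 genes were lower and 12 higher, and without either of MCF10A 61 and 8. Of the sizes of change, 93 of the 107 stayed below 65% and 11 of the 20 stayed more than 65% above the control whichever of the 4 arrays was left out. The sizes depended on the background correction. Without it, all 54 called genes named by the rule changed less, by more than 1.5 times in 14 of them. DKK3 was then at 0.30, ARL14EPL at 0.35, ZNF165 at 0.39, ARG2 at 0.52 and TSPAN13 at -0.47, all inside the fold limits. ADAM10 was at -1.33, ADCY9 at -0.92, SMIM13 at -0.90, GOLT1B at -1.11, CBL at -0.68 and ADAM17 at -0.92. ADCY9, CHIC2, DAZAP2, GOLT1B, HMGCS1, MAP1LC3A, MARCKS, PIGC and SPRED1 were called without any 1 of the 12 arrays.

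**Figure D1:**
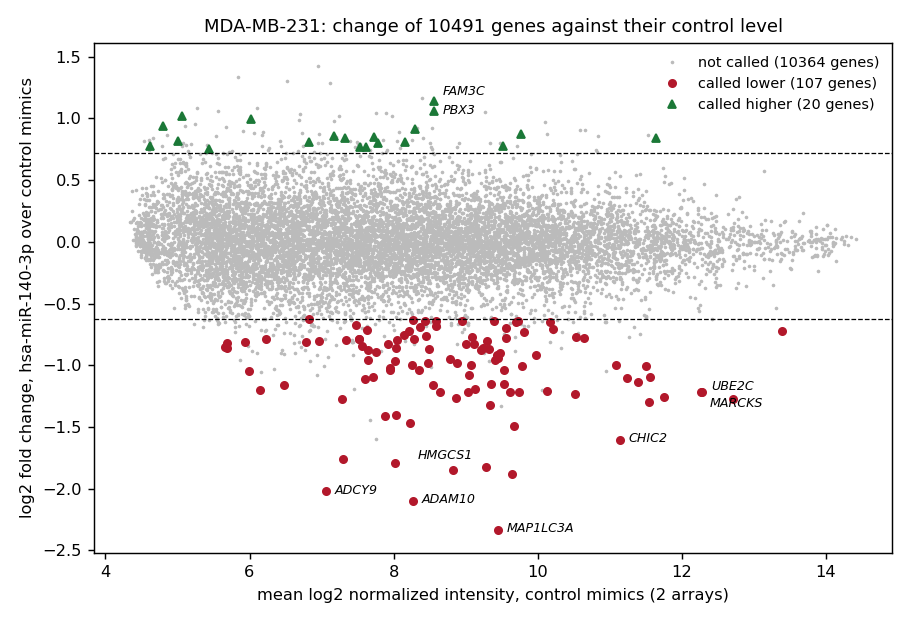
Each point is 1 of 10491 tested genes in MDA-MB-231, with the mean log2 normalized intensity of the 2 control arrays on the x axis and the log2 fold change of hsa-miR-140-3p over control mimics on the y axis. Dashed lines mark the fold limits, 65% of the control and 65% above it, red circles the 107 genes called lower and green triangles the 20 called higher, and the falls reach -2.33 while the rises end at 1.14.

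MAP1LC3A, a member of the LC3 family of ubiquitin-like proteins that are coupled to autophagosome membranes, fell most. It was at 7.08 and 7.17 with hsa-miR-140-3p and at 9.38 and 9.53 in controls. Cells with the mimic thus kept 19.9% of the control level, a log2 difference of -2.33 ± 0.12 (SE, adjusted p = 5.61e-05). The groups lay far apart relative to the distance between the arrays within each group. Of 30 measured genes of an autophagy list, MAP1LC3A was the only member that passed, and the list's median was -0.06. The WIPI proteins bind phosphoinositides on forming autophagosomes, and WIPI2 at -0.66 (adjusted p = 0.0851) and WIPI1 at -0.61 (adjusted p = 0.114) did not pass. ATG4D, a protease that processes LC3 proteins, was at 0.56 (adjusted p = 0.119).

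Among the proteases that cut membrane proteins near the cell surface, both main sheddases fell. ADAM10 was at 5.91 and 6.42 with hsa-miR-140-3p and at 8.49 and 8.04 in controls, a log2 difference of -2.10 ± 0.29 (adjusted p = 0.0103). ADAM17 was at 6.48 and 6.79 with hsa-miR-140-3p and at 8.21 and 7.87 in controls, a difference of -1.40 ± 0.23 (adjusted p = 0.0211). The spread between the arrays within a group was wider for these genes than for MAP1LC3A, and the groups did not overlap. A second probe of ADAM10 differed by -1.16 and was at background on both hsa-miR-140-3p arrays, and 2 further probes of ADAM17, at background on at least 1 hsa-miR-140-3p array, differed by -0.84 and -0.17. APLP2, an amyloid precursor-like protein that sheddases cut, was at 8.54 and 8.5 with hsa-miR-140-3p and at 9.61 and 9.87 in controls (-1.22 ± 0.14, adjusted p = 0.00388). These were the 3 genes that fell of 15 measured in a list of the amyloid precursor family and its secretases, where 1.02% of all genes fell, and none rose. APP itself differed by -0.28 (adjusted p = 0.354), the gamma-secretase subunit APH1B by -0.61 (adjusted p = 0.126), and ADAM9, BACE1 and BACE2 by 0.08, 0.10 and 0.02. The list's median was -0.12.

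HMGCS1, the cytosolic synthase that makes HMG-CoA for cholesterol synthesis, was at 7.38 and 7.55 with hsa-miR-140-3p and at 9.20 and 9.37 in controls. It was down to 28.3% of the control level, a log2 difference of -1.82 ± 0.17 (adjusted p = 0.00106). No other enzyme of the pathway passed. HMGCS1 was the only called gene among 19 measured genes of cholesterol synthesis and uptake, of which 13 had a difference above 0, and their median was 0.13. The largest positive values were for INSIG1, a sterol-regulated retention protein of the endoplasmic reticulum (0.75, adjusted p = 0.0795), and for DHCR7, the last enzyme of a synthesis branch (0.39, adjusted p = 0.227). Among 16 genes of fatty acid synthesis none passed, and the desaturase SCD5 was nearest with -0.92 (adjusted p = 0.0505).

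**Figure D2:**
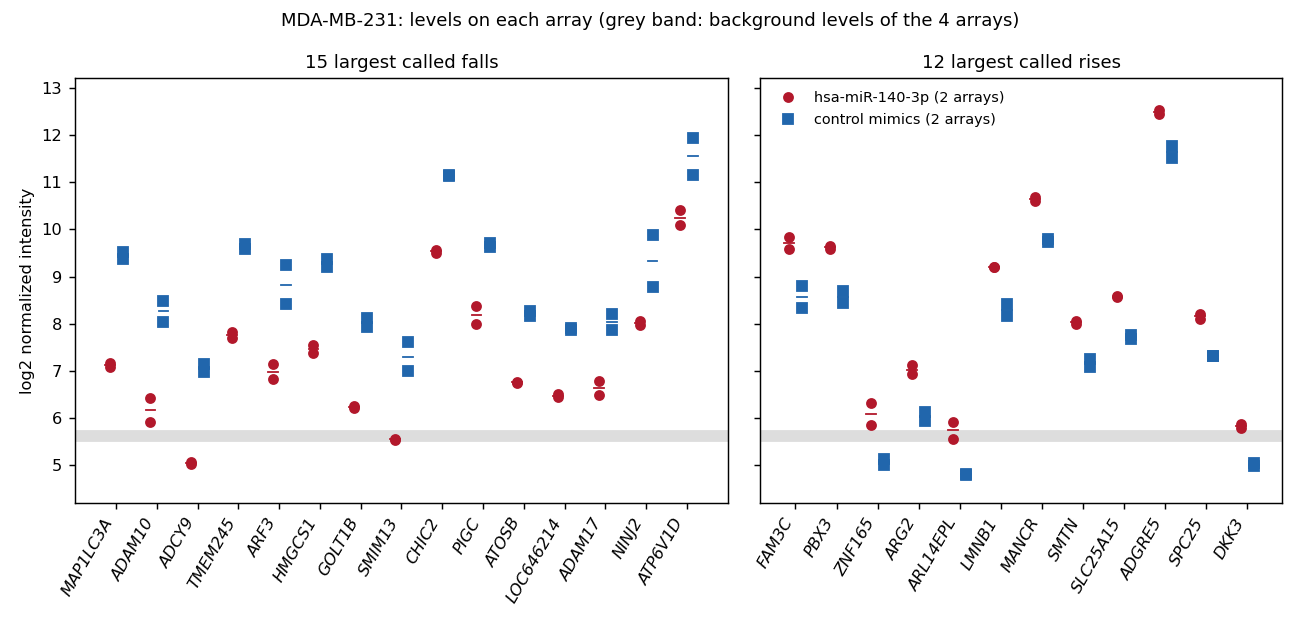
The y axis gives the log2 normalized intensity on each array for the 15 called genes with the largest falls (left panel) and the 12 with the largest rises (right panel) in MDA-MB-231. Red circles are the 2 hsa-miR-140-3p arrays, blue squares the mimic-ctrl1 and mimic-ctrl2 arrays, short bars the group means, and the grey band the background levels of the 4 arrays from 5.51 to 5.72. No gene has overlapping groups, and ADCY9 lies below the band in both hsa-miR-140-3p arrays.

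GOLT1B, ARF3, CHIC2 and PIGC were further genes among the largest falls. GOLT1B, a Golgi membrane protein of vesicle transport, was at 6.26 and 6.20 with hsa-miR-140-3p and at 7.93 and 8.11 in controls (-1.79 ± 0.14, adjusted p = 0.00058). ARF3, a small GTPase that recruits coat proteins to Golgi membranes, was at 6.82 and 7.14 with hsa-miR-140-3p and at 8.42 and 9.24 in controls (-1.85 ± 0.27, adjusted p = 0.0119). The control arrays of ARF3 lay wider apart than those of GOLT1B. CHIC2, a membrane-associated protein, was at 9.5 and 9.57 with hsa-miR-140-3p and at 11.13 and 11.14 in controls (-1.60 ± 0.13, adjusted p = 0.00058). PIGC, a subunit of the enzyme complex that starts GPI anchor synthesis, was at 8.37 and 8.0 with hsa-miR-140-3p and at 9.72 and 9.63 in controls (-1.49 ± 0.13, adjusted p = 0.00106), and its second probe differed by -1.71. Separate groups were part of the rule that chose these genes, as for all of the largest falls and rises named here. ARF5, SAR1A, which starts coat assembly at the exit sites of the endoplasmic reticulum, RAB8B, a GTPase of transport to the plasma membrane, and REEP5, which shapes the endoplasmic reticulum, also fell, with log2 differences of -0.80, -0.95, -1.15 and -1.14, and were picked here for their roles after their values were seen.

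The proton pump of acidic organelles, the V-ATPase, lost transcript of a stalk subunit and of an accessory subunit. ATP6V1D was at 10.09 and 10.41 with hsa-miR-140-3p and at 11.16 and 11.93 in controls (-1.30 ± 0.24, adjusted p = 0.0337). ATP6AP2, also known as the prorenin receptor, was at 10.51 and 10.48 with hsa-miR-140-3p and at 11.44 and 11.57 in controls (-1.01 ± 0.11, adjusted p = 0.00388). Both genes were separated between the groups. Of 17 measured V-ATPase genes these 2 fell, against 1.02% of all genes, and none rose, and the list's median of -0.16 was -0.40 without mimic-ctrl1 and -0.03 without mimic-ctrl2. ATP6V1D kept its call in 3 of 12 fits that each left out 1 array. None of 29 lysosome genes passed (median -0.10).

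Signaling genes that fell included an adenylyl cyclase and inhibitors of receptor tyrosine kinase signaling. ADCY9, a membrane enzyme that makes cyclic AMP, was at 5.06 and 5.02 with hsa-miR-140-3p, which is background, and at 6.98 and 7.14 in controls, so that it was at least 2.74-fold lower on the background-corrected scale (adjusted p = 0.000392). It was the only called gene of 20 measured genes of cAMP signaling, whose median was 0.08. CBL and CBLB encode ubiquitin ligases that mark activated receptor tyrosine kinases for degradation. CBL was at 6.52 and 6.45 with hsa-miR-140-3p and at 7.69 and 7.51 in controls (-1.11 ± 0.14, adjusted p = 0.00718), and its second probe differed by -1.40. CBLB was at 7.0 and 7.18 with hsa-miR-140-3p and at 7.89 and 7.94 in controls (-0.83 ± 0.13, adjusted p = 0.0178). Both ligases were lower in each hsa-miR-140-3p array than in each control array. The other 15 measured genes of the ErbB list did not pass, among them EGFR (-0.06), ERBB2 (-0.34) and the ligand TGFA (-0.31). The list's median was -0.11, and 1.02% of all genes fell. SPRED1, an inhibitor of Ras to Raf signaling that is not in this list, fell to 42.6% of the control (-1.23 ± 0.11, adjusted p = 0.00106), and MARCKS, which binds actin and is phosphorylated by protein kinase C, to 43.0% (-1.22 ± 0.11, adjusted p = 0.00106).

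Further genes with large falls were of mixed or little known function. TMEM245, a membrane protein, was at 7.82 and 7.70 with hsa-miR-140-3p and at 9.58 and 9.69 in controls (-1.88 ± 0.21, adjusted p = 0.00409). SMIM13, a small membrane protein, was at 5.54 and 5.55 with hsa-miR-140-3p, the first of which is background, and at 6.99 and 7.61 in controls. ATOSB was at 6.76 and 6.74 with hsa-miR-140-3p and at 8.17 and 8.28 in controls. None of these genes had overlapping groups. LOC646214, which RefSeq lists as a transcribed pseudogene and whose probe may also bind related transcripts, differed by -1.41 (adjusted p = 0.00718). NINJ2, a cell surface adhesion protein, was at 7.98 and 8.05 with hsa-miR-140-3p and at 9.89 and 8.79 in controls, and its call was kept in 2 of 12 fits without 1 array. In 8 of the 107 genes both hsa-miR-140-3p arrays were at background, so that only a lower bound of the fall is known, and TSPAN13, a tetraspanin, was at least 1.46-fold lower. The 66 lower genes not named under the rule for named genes had log2 differences from -1.28 to -0.63.

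In the fit of all 12 arrays the rises were few and smaller. FAM3C, a secreted protein that has been linked to epithelial to mesenchymal transition, was at 9.57 and 9.83 with hsa-miR-140-3p and at 8.80 and 8.33 in controls (1.14 ± 0.17, adjusted p = 0.0128), and its second probe differed by 1.18. PBX3, a homeodomain transcription factor, was at 9.59 and 9.66 with hsa-miR-140-3p and at 8.44 and 8.69 in controls (1.06 ± 0.13, adjusted p = 0.00498). The groups were separated for both genes. ARG2, the mitochondrial arginase that makes ornithine, was at 7.12 and 6.93 with hsa-miR-140-3p and at 6.12 and 5.93 in controls (1.0 ± 0.20, adjusted p = 0.0494). SLC25A15, the mitochondrial ornithine carrier, was at 8.56 and 8.59 with hsa-miR-140-3p and at 7.77 and 7.68 in controls (0.85 ± 0.12, adjusted p = 0.011). Both genes belong to ornithine handling in mitochondria, and the call of ARG2 was kept in 2 of 12 fits without 1 array while that of SLC25A15 was kept in 10. LMNB1, a protein of the nuclear lamina, rose by 0.91, SPC25, a kinetochore component, by 0.84, and the long noncoding RNA MANCR by 0.88. SMTN, a cytoskeletal protein of smooth muscle, rose by 0.86 and ADGRE5, the adhesion receptor CD97, by 0.84, with calls kept in 5 and 3 of 12 fits without 1 array. ZNF165, ARL14EPL and DKK3 were at background in both control arrays and were at least 1.37-fold, 1.08-fold and 1.15-fold higher with hsa-miR-140-3p. DKK3, a secreted protein of the Dickkopf family, was the only called gene of 19 measured genes of a stem cell and Wnt list (median -0.08). Its other probes were at background on all 4 arrays and differed the other way, by -0.19, -0.21 and -0.15. BIK, named after its values were seen, was called higher although it was at background on all 4 arrays, so no fold is given. The other 6 rises outside the rule for named genes were TAGLN3, TAF5, MLEC, CST1, RPPH1 and PPP1R12B, likewise named afterwards, and EIF4EBP2 is described below.

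Genes of the cell cycle had small positive differences over most members. UBE2C, the ubiquitin-conjugating enzyme that works with the anaphase-promoting complex, fell: it was at 10.97 and 11.16 with hsa-miR-140-3p and at 12.49 and 12.07 in controls (-1.22 ± 0.15, adjusted p = 0.00489). It was the only called gene of 32 measured genes of G2/M and mitosis, 26 of which had a difference above 0 and 6 below, with a median of 0.40. In 22 of the 32 both hsa-miR-140-3p arrays were above both control arrays, where 21.4% of all genes showed this order. CCNA2, a cyclin of S phase and mitosis, was at 10.96 and 11.03 with hsa-miR-140-3p and at 10.67 and 9.58 in controls (0.87 ± 0.27, adjusted p = 0.170), so that most of the difference came from mimic-ctrl2. For this list mimic-ctrl1 was above mimic-ctrl2 in 28 of 32 genes, by a median of 0.40. The median difference from controls was 0.55 without mimic-ctrl1 and 0.15 without mimic-ctrl2. The size of the G2/M difference thus depended on which control array was used. Control mimic and array cannot be told apart here.

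Genes of G1/S and DNA replication also had mostly positive differences, with less dependence of the median on the control array. None of 30 measured genes passed, 29 had a difference above 0, and the median was 0.30. In 20 of them both hsa-miR-140-3p arrays were above both control arrays, where 21.4% of all genes showed this order. The median was 0.28 without mimic-ctrl1 and 0.25 without mimic-ctrl2. TYMS, which makes thymidylate, was at 10.91 and 11.11 with hsa-miR-140-3p and at 10.23 and 10.38 in controls. Its difference of 0.71 ± 0.12 had an adjusted p of 0.0261 but remained under the fold limit, as did that of PCNA, the sliding clamp of DNA replication (0.57 ± 0.11, adjusted p = 0.0408). Some members differed strongly between the controls. CDK6 was at 10.17 and 10.11 with hsa-miR-140-3p and at 10.61 and 8.07 in controls, and RRM2 at 8.34 and 8.47 with hsa-miR-140-3p and at 6.35 and 7.90 in controls, and both were named after their values were seen. In MCF10A the medians of the G1/S and G2/M lists were 0.06 and 0.02. With the 5'isomiR in MDA-MB-231, set against the same control arrays, they were 0.42 and 0.64. There 5 and 13 genes were called higher, against 2.41% of all genes.

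**Figure D3:**
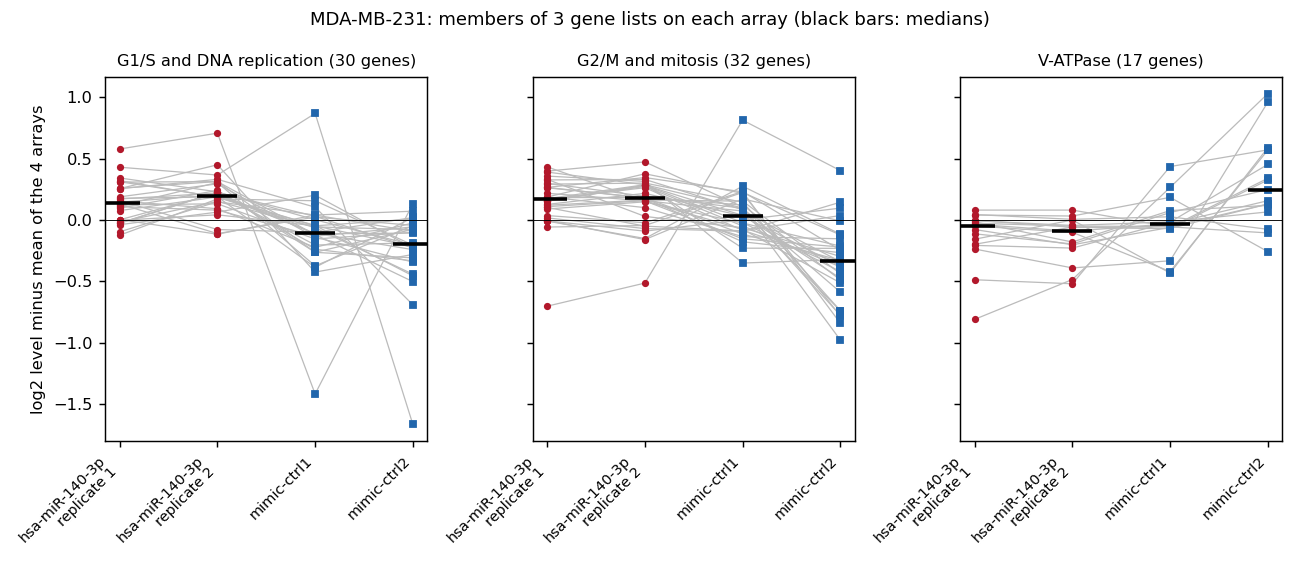
Each grey line is a gene, with its log2 level minus the mean of the 4 arrays on the y axis and the 4 arrays on the x axis: the 2 of hsa-miR-140-3p (red circles), mimic-ctrl1 and mimic-ctrl2 (blue squares). Black bars are medians over the 30 genes of G1/S and DNA replication, the 32 of G2/M and mitosis and the 17 of the V-ATPase in MDA-MB-231, and mimic-ctrl2 has the lowest median in both cell cycle lists and the highest for the V-ATPase.

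Calls in the remaining lists were rare. GBP1, an interferon-inducible GTPase, and IRF1, a transcription factor of the interferon response, fell among 26 measured interferon genes, where 1.02% of all genes fell. Their log2 differences were -0.88 ± 0.18 (adjusted p = 0.044) and -0.65 ± 0.13 (adjusted p = 0.0494). GBP1 was at 8.35 and 8.31 with hsa-miR-140-3p and at 9.13 and 9.28 in controls, and IRF1 at 9.54 and 9.5 with hsa-miR-140-3p and at 10.33 and 10.02 in controls. Both were near the threshold, and their calls were kept in 2 and 1 of 12 fits without 1 array. The other members lay on both sides of 0, with ISG15 at 0.32 and OAS2 at -0.52, and the median was -0.06. No gene passed among 20 p53 targets, 22 genes of ATF4 and the unfolded protein response, 23 inflammatory genes of NF-kB, 30 genes of glucose use and hypoxia, 23 integrins and adhesion genes, and 17 genes of the miRNA machinery, and the medians of these lists lay between -0.04 and 0.06. In the last list WWP2, the host gene of miR-140, differed by 0.17 (adjusted p = 0.741) and AGO2, the Argonaute that cuts its targets, by 0.61 with control arrays at 10.56 and 9.23.

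Of 5 measured genes on a list of targets that others had reported for miR-140-3p, ATP6AP2 alone passed the test, where 1.02% of all genes fell. BRD9, a subunit of a chromatin remodelling complex, was at 9.88 and 9.74 with hsa-miR-140-3p and at 10.75 and 10.35 in controls (-0.74 ± 0.17, adjusted p = 0.0759). NCOA1, a coactivator of nuclear receptors, was at 7.22 and 7.25 with hsa-miR-140-3p and at 7.66 and 7.71 in controls (-0.44 ± 0.14, adjusted p = 0.182). Both were lower in each hsa-miR-140-3p array than in each control array without passing, an order that 22.2% of all genes showed. The nuclear receptor corepressor NRIP1 differed by -0.11 (95% interval -0.51 to 0.28) and the corepressor TRIM28 by 0.02 (95% interval -0.27 to 0.30), and the list's median was -0.44.

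The same mimic in MCF10A, with its own control arrays, lowered 76 genes and raised 15, 0.724% and 0.143% of those tested. Of the 107 genes lower in MDA-MB-231, 30 were also called lower in MCF10A, which is 28.0% of the MDA-MB-231 genes and 39.5% of the MCF10A genes, against 0.286% of all genes that were lower in both. A difference below 0 in MCF10A was found for 100 of the 107 (93.5%, against 48.4% of all genes), with a median of -0.56. Of the 20 genes that rose, 16 had a difference above 0 in MCF10A and FAM3C and EIF4EBP2 were called there too (0.0191% of all genes rose in both). No gene was called in opposite directions.

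The shared falls included some of the largest in MDA-MB-231. CHIC2 differed by -1.60 in MDA-MB-231 and by -1.59 in MCF10A, where it was at 8.46 and 8.56 with hsa-miR-140-3p and at 9.99 and 10.22 in controls, and the difference between the lines was -0.01 (95% interval -0.41 to 0.39). MAP1LC3A differed by -2.33 in MDA-MB-231 and by -1.85 in MCF10A, where it was at 5.69 and 5.72 with hsa-miR-140-3p, 1 of them at background, and at 7.62 and 7.51 in controls, a difference between the lines of -0.48 (95% interval -0.87 to -0.08) that did not pass after adjustment. TMEM245 differed by -1.88 in MDA-MB-231 and by -1.503 in MCF10A, and UBE2C by -1.22 in MDA-MB-231 and by -1.09 in MCF10A. In MCF10A too the groups of these genes were separated. Further shared falls, with differences in MCF10A between -1.39 and -0.65 where its hsa-miR-140-3p arrays were above background, included the V-ATPase genes ATP6V1D and ATP6AP2, APLP2, CBL, MARCKS and SPRED1. They also included SLC20A2, a phosphate transporter, NMNAT2, an enzyme of NAD synthesis, FARP1, MOCS2, which makes molybdopterin, AASDHPPT, a phosphopantetheinyl transferase, and SBDS, a factor of ribosome maturation. The remaining shared falls were GOLT1B, PIGC, ATOSB, DAZAP2, LHFPL2, TSPAN13, RAB8B, REEP5, WRAP73, AFAP1L2, BCAS4, SAR1A, ARF5 and LIAT1. ATOSB, AFAP1L2, NMNAT2 and LIAT1 were at background on both hsa-miR-140-3p arrays of MCF10A and at least 1.97-fold, 1.04-fold, 1.16-fold and 1.41-fold lower there. Of the shared genes, the call in MDA-MB-231 was kept in 1 of 12 fits without 1 array for LIAT1, in 3 for AFAP1L2, NMNAT2, SBDS and EIF4EBP2, and in 4 for ATOSB. SBDS has the near-identical pseudogene SBDSP1, which was also called lower and was named after its values were seen, and the probes of the pair may share signal. EIF4EBP2, a repressor of translation that binds eIF4E, was at 8.40 and 8.38 with hsa-miR-140-3p and at 7.80 and 7.44 in controls in MDA-MB-231, a difference of 0.77, and rose by 0.76 in MCF10A.

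Other genes that fell in MDA-MB-231 were not called in MCF10A. HMGCS1 differed by -0.56 (adjusted p = 0.169) in MCF10A, where it was at 10.40 and 10.38 with hsa-miR-140-3p and at 10.69 and 11.22 in controls. ADAM10 differed by -0.79 (adjusted p = 0.245) and ADAM17 by -0.45 (adjusted p = 0.435). ADCY9 was at background on both hsa-miR-140-3p arrays of MCF10A, where its level was at least 1.53-fold below controls without passing (adjusted p = 0.0643), so the sizes in the lines cannot be compared. NINJ2 was at background in all 4 of these MCF10A arrays, and so were DKK3, MANCR and ARL14EPL among the genes that rose. In limma's test of the difference of the effect between the lines no gene passed in either direction, and the lowest adjusted p was 0.168. At an unadjusted p under 0.05, which many genes reach without any difference, 422 of the 10491 genes were lower and 411 higher. A p that misses the threshold does not show that the lines responded alike.

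**Figure D4:**
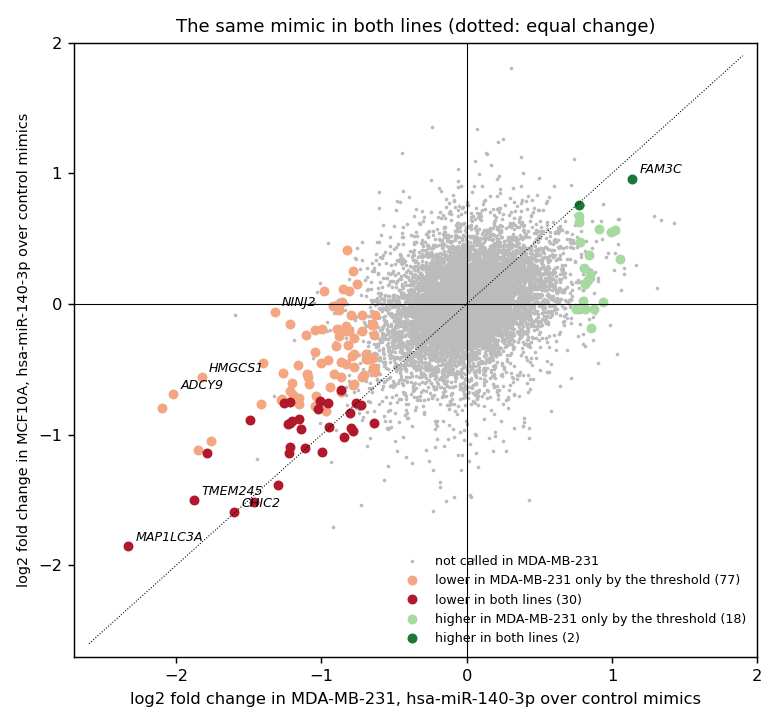
Each point is a gene, with the log2 fold change of hsa-miR-140-3p over control mimics in MDA-MB-231 on the x axis and in MCF10A on the y axis, and the dotted line marks equal change. Dark red points are the 30 genes called lower in both lines, light red the other 77 called lower in MDA-MB-231, dark green the 2 called higher in both and light green the other 18 called higher in MDA-MB-231, and 100 of the 107 red points lie below 0 in MCF10A.

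The 5'isomiR arrays of MDA-MB-231 allow a direct comparison of the canonical form with a mimic whose seed is shifted by 1 base. hsa-miR-140-3p cells had 215 genes lower than 5'isomiR-140-3p cells and 303 higher, 2.05% and 2.89% of those tested. Of the 107 genes lower than in controls, 45 were also lower than with the 5'isomiR, 4 were higher and 58 passed neither way. Both comparisons use the same hsa-miR-140-3p arrays, which by itself favours lower over higher in this count and also bears on the next counts. The 58 are not thereby shown to respond alike. For the next counts the fold limit for falls was applied in both directions. Of the genes higher than with the 5'isomiR, 288 of 303 (95.05%) stayed within it with hsa-miR-140-3p against controls, close to the 95.7% of all genes. Of those lower than with the 5'isomiR, 149 of 215 (69.3%) did.

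HMGCS1, GOLT1B and TMEM245 were among the falls that separated the forms. HMGCS1 was at 7.38 and 7.55 with hsa-miR-140-3p and at 9.06 and 9.23 with the 5'isomiR (-1.68 ± 0.17, adjusted p = 0.000471). GOLT1B was at 6.26 and 6.20 with hsa-miR-140-3p and at 7.92 and 7.89 with the 5'isomiR (-1.67 ± 0.14, adjusted p = 0.000276). TMEM245 was at 7.82 and 7.70 with hsa-miR-140-3p and at 9.39 and 9.45 with the 5'isomiR (-1.66 ± 0.21, adjusted p = 0.00174). With the 5'isomiR these genes differed from controls by -0.14, -0.12 and -0.21 on average, and none passed. CHIC2 (-1.59), UBE2C (-1.36) and ADAM10 (-1.10) were likewise lower with hsa-miR-140-3p than with the 5'isomiR, as were SPRED1 (-0.95), MARCKS (-0.82) and ATP6AP2 (-0.74). TSPAN13 and ADCY9, at background on both hsa-miR-140-3p arrays, were at least 1.82-fold and 1.88-fold lower than with the 5'isomiR.

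A different set of falls did not separate the forms. DAZAP2 was at 10.51 and 10.47 with hsa-miR-140-3p, at 10.51 and 10.55 with the 5'isomiR and at 11.79 and 11.72 in controls. CBL was at 6.52 and 6.45 with hsa-miR-140-3p and at 6.50 and 6.35 with the 5'isomiR, a difference of 0.07 ± 0.14. ATP6V1D differed by -0.25 ± 0.24 and ADAM17 by -0.41 ± 0.23 between the forms. All 4 genes were lower than in controls with each mimic, and these comparisons share the control arrays, as do the 37 genes of the 107 that also fell with the 5'isomiR, which lowered 5.09% and raised 2.41% of all genes. MAP1LC3A was at 7.08 and 7.17 with hsa-miR-140-3p and at 7.77 and 7.53 with the 5'isomiR, a difference of -0.53 ± 0.12 that had an adjusted p of 0.032 but was under the fold limit. BCAS4 was higher with hsa-miR-140-3p than with the 5'isomiR, at 8.52 and 8.37 with hsa-miR-140-3p and at 7.53 and 7.51 with the 5'isomiR (0.92 ± 0.14, adjusted p = 0.00455). APLP2 differed by 0.45 ± 0.14 (adjusted p = 0.0822).

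Other genes differed between the forms without being called with hsa-miR-140-3p against controls. UROS, an enzyme of heme synthesis, was at 11.70 and 11.90 with hsa-miR-140-3p, at 8.35 and 8.64 with the 5'isomiR and at 11.80 and 11.92 in controls, which is 3.30 ± 0.14 higher with the canonical form (adjusted p = 4.61e-06). GSTM2, a glutathione transferase, DNM1L, the GTPase of mitochondrial fission, and EI24, a membrane protein of the endoplasmic reticulum, were higher with hsa-miR-140-3p by 2.25, 2.10 and 2.0. TNFSF12, a cytokine of the TNF family, was at background on both 5'isomiR arrays and at least 3.48-fold higher with hsa-miR-140-3p. At the other end INHBB, a subunit of activin and inhibin, was at 6.16 and 5.92 with hsa-miR-140-3p, at 8.18 and 8.11 with the 5'isomiR and at 6.17 and 5.47 in controls. The aldehyde dehydrogenase ALDH3A1 was lower with hsa-miR-140-3p than with the 5'isomiR by 2.03 and the lens filament protein BFSP1 by 1.60, although the control arrays of BFSP1 lay at 7.41 and 6.13.

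The study had picked 8 genes as candidate targets of the 5'isomiR from these arrays, and 7 of them were measured. They were chosen on these samples from genes that fell specifically with the 5'isomiR. Neither their behaviour with the 5'isomiR nor the absence of calls with hsa-miR-140-3p is therefore independent evidence. None passed with hsa-miR-140-3p against controls, and the median difference was 0.14. MARCKSL1, a relative of MARCKS, was at 10.23 and 10.45 with hsa-miR-140-3p, at 8.22 and 8.53 with the 5'isomiR and at 9.71 and 10.33 in controls. ITGA6, the integrin alpha 6 chain, was at 8.35 and 8.12 with hsa-miR-140-3p, at 6.70 and 7.07 with the 5'isomiR and at 8.12 and 8.10 in controls. COL4A1, a chain of type IV collagen, was at 9.24 and 9.26 with hsa-miR-140-3p, at 8.06 and 8.15 with the 5'isomiR and at 9.25 and 8.96 in controls. In these genes the hsa-miR-140-3p arrays were above both 5'isomiR arrays, and their 95% intervals against controls were -0.16 to 0.81, -0.20 to 0.45 and -0.24 to 0.52. CCT5, a chaperonin subunit, differed from controls by -0.05, CHCHD4, a mitochondrial import factor, by 0.38 and the transcription factor SRF by 0.40. RUVBL1, an ATPase of chromatin remodelling complexes, had the lowest value with -0.38 (95% interval -0.64 to -0.11, adjusted p = 0.173). In the paper, a luciferase reporter with the CCT5 3' untranslated region fell with both forms in another breast cancer line. That is a different measure from the transcript level here. The paper kept MARCKSL1, ITGA6 and COL4A1 as direct targets of the 5'isomiR after reporter, site mutation and transcript tests.

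**Figure D5:**
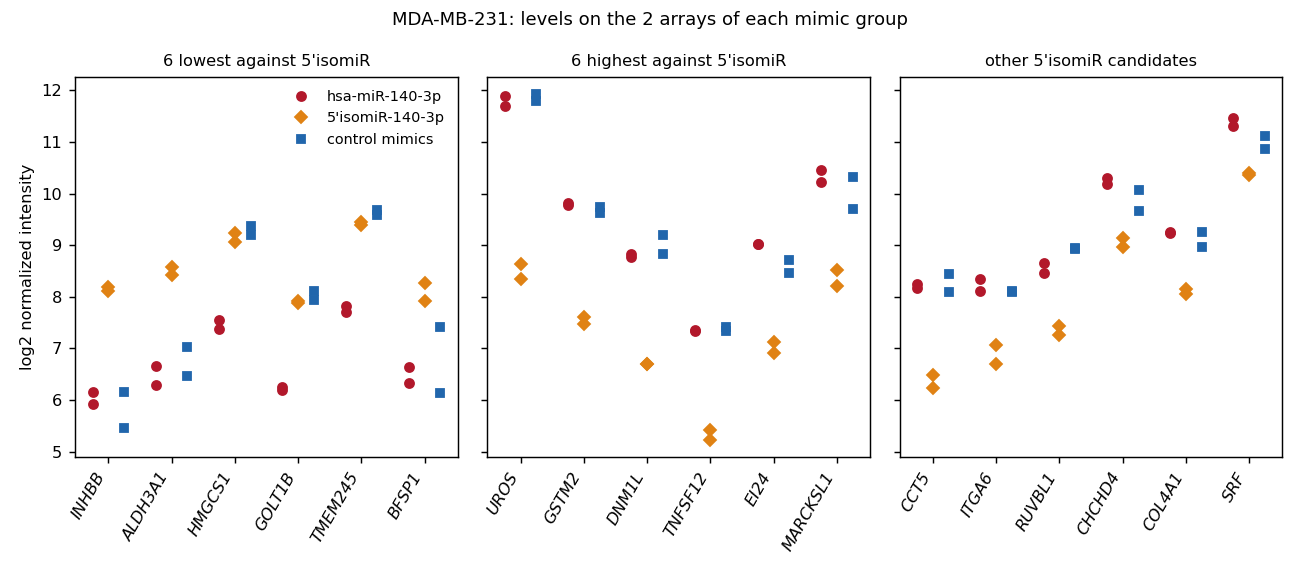
The y axis gives the log2 normalized intensity on the arrays of MDA-MB-231 for the 6 genes called lowest with hsa-miR-140-3p against the 5'isomiR-140-3p, the 6 called highest and the other measured candidate genes of the 5'isomiR. Red circles are hsa-miR-140-3p, orange diamonds the 5'isomiR and blue squares the control mimics, 2 arrays each, and in the middle and right panels the red circles and the blue squares all lie above the orange diamonds.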

How the data were processed

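RNA of 12 samples was measured on Illumina HumanHT-12 v4 arrays, 1 sample each. The authors deposited linear intensities, normalized by a method not given in the sources used here, and the values show no background subtraction. A second table with 24 columns, whose names match no sample label, was not used. Of 47323 probes, 4 with 7 missing values were left out. Symbols were updated by gene ID for 30072 of 30111 probes with 1 gene, and 8 probes with several genes and 17200 with none were not tested. Intensities were corrected with normexp (offset 16, 457 olfactory receptor probes as negative controls), quantile normalized over the 12 arrays and taken to log2 with limma 3.58.1 in R 4.3.3. The filter kept 13705 probes that exceeded the 0.99 quantile of the olfactory receptor probes on 2 or more arrays, and a gene was tested through its brightest probe. The olfactory receptor probes replaced detection p-values, which could not be tied to samples. limma's linear model had a mean for each of 6 groups, with 6 residual and 3.79 prior degrees of freedom, and Benjamini-Hochberg adjustment ran over every gene tested. A call needed a level under 65% of the control, which is the study's limit for falls, or more than 65% above it, and an adjusted p under 0.05. Bounds were taken against the background level where a group was at background. Values after ± are standard errors. The number of arrays and the use of different control mimics limit the precision, and the sources used here state biological replicates for the miRNA mimics only.

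Named are the 15 largest falls and 12 largest rises with separated groups, genes called in both lines, up to 4 called members of each list, all measured members of the reported targets and of the 5'isomiR candidates, and the 6 largest differences each way between the forms. The genes, lists and tests were chosen with earlier results of these data known. The fit was tested on simulated data. The alternatives changed the background correction (none), the normalization (median scaling or the deposited values as they are), the filter, the choice of probe, the arrays fitted, the moderation (trend and robust), the fold threshold (none) and the model (a replicate block), or left out each array in turn. A filter on the 6 MDA-MB-231 arrays was added after seeing the data. Replicate numbers were not used to pair the samples outside the replicate block. The sources used here do not say whether they mark a shared origin, and both control mimics carry the same number.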

Additional observations from a re-analysis of the deposited data

How the results depend on the processing

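With 2 arrays a group, the counts moved more than the sizes of change. Of the counts against controls, the 107 genes lower became 30 when only the 6 arrays of MDA-MB-231 were fitted, 0 with only the 4 arrays compared and 9 with a replicate block, and ranged from 9 to 170 when 1 array was left out. The 20 genes higher became 10 with no background correction, 10 on the deposited values, 11 with no filter on dim probes, 1 with the 6 arrays, 0 with the 4 arrays, 35 with trend and robust moderation and 0 with the replicate block, and ranged from 0 to 156. Against the 5'isomiR, the 215 genes lower became 108 with no background correction, 108 on the deposited values, 140 with the 6 arrays, 323 with the 4 arrays and 132 with the block (range 59 to 282), and the 303 higher became 166, 169 and, with no fold threshold, 476 (range 162 to 326). Trend and robust moderation gave 1 gene lower and 2 higher for the difference between the lines, and leaving out 1 array gave 0 to 4 and 0 to 3. Each fit with fewer arrays has fewer degrees of freedom, and a group reduced to 1 array borrows its spread from the rest. The block uses replicate numbers, and the sources used here do not say whether same-numbered arrays share an origin. Deviations of same-numbered arrays correlated at -0.02 in MDA-MB-231 and 0.02 in MCF10A, which cannot decide this. For the single genes named or listed, 728 values kept direction and side of the threshold under other settings, 203 lost the call, 3 gained it and 1 reversed, and with 1 array left out 811 kept both, 199 lost the call, 1 gained it and 9 reversed. The reversals were TRIM28 at -0.0060 with the block and, with 1 array left out, TRIM28 (-0.091 to 0.12), BFSP1 (-0.92 to 0.36), UROS (-0.16 to 0.040), CCT5 (-0.22 to 0.11), COL4A1 (-0.0064 to 0.29), INHBB (-0.12 to 0.58), NRIP1 (-0.24 to 0.014) and TNFSF12 (-0.069 to 0.0017). None of these genes was called against controls. The cause of the other changes was not tested.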

Other observations

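The families below were chosen after the values were seen, and their counts are descriptions with no test. Among 12 measured ARF, ARL and SAR1 GTPases, ARF3, ARF5 and SAR1A fell with hsa-miR-140-3p (25.0% of the family, against 1.02% of all genes), with a family median of -0.12. Among 42 RAB GTPases only RAB8B fell (median -0.12). Both called ADAM proteases were the sheddases ADAM10 and ADAM17 of 7 measured, whose median was 0.08. Of 19 tetraspanins TSPAN13 and TSPAN8 fell, and of 7 exocyst subunits, which tether vesicles at the plasma membrane, EXOC6 fell (-1.04). Of 262 zinc finger genes with ZNF symbols 1 fell and 1 rose (median -0.03).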
